A study of Mus musculus with 10 samples.

Results

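Immune cell, NF-kB and interferon genes were examined in RNA sequencing libraries of mouse pancreatic islets, the clusters of hormone-secreting cells that hold the insulin-producing β cells. The set was a fixed list of 53 gene symbols matched to the symbols of the deposited table. It comprised 17 immune cell genes, 19 NF-kB genes and 17 interferon genes. Rows were found for 50 of the 53 symbols, among 17945 named rows in all, and Adgre1, Cd163 and Il6 were not analysed here. Islets came from C57BL/6 mice at 18 weeks of age. Per the labels, the 5 knockout libraries were from mice with Pdx1-CreER and Grk5 flox/flox, and the 5 control libraries from mice with Grk5 flox/flox alone, so both groups carried the floxed alleles. CreER is a Cre recombinase fused to an estrogen receptor domain that tamoxifen activates, and the Pdx1 promoter drives it in β cells and other Pdx1-expressing cells. Grk5 encodes a kinase that phosphorylates active G protein-coupled receptors. The title of the series ties it to β-cell proliferation through HDAC5. The labels give no Cre-only group.

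Islets hold resident macrophages, and small numbers of lymphocytes can be present in an isolated preparation. NF-kB is a family of transcription factor dimers, held in the cytoplasm by IκB proteins, that switch on chemokines, adhesion molecules and their own inhibitors after cytokines or microbial products are sensed. Type I interferon acts through a transcription factor complex that binds the interferon-stimulated response element (ISRE) and switches on antiviral genes. β cells respond to both routes during islet inflammation. In whole islets, fewer cells of a type and less RNA per cell cannot be told apart.

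The promoters of 5 members are shown because they carry the elements that NF-kB and interferon-activated factors are known to bind, and because Cxcl10, the member with the smallest p in the group comparison, holds both kinds. Each runs 5′ to 3′ from 250 bases before to 50 bases after the RefSeq start site (GRCm38.p6). Capitals mark matches to the ISRE core (GAAA, any 2 bases, GAAA) or to the kB motif (GGG, any 3 bases, TTCC), on either strand, and overlapping matches join into longer runs of capitals. Cxcl10, a chemokine that attracts T cells, lies at chr5:92348840-92349139, minus strand. Nfkbia, the inhibitor IκBα, lies at chr12:55492598-55492897, minus strand. Cxcl2, a neutrophil chemokine, lies at chr5:90903649-90903948, plus strand. Ifit1, an inhibitor of viral RNA translation, lies at chr19:34640639-34640938, plus strand, and Gbp3, a guanylate-binding protein, at chr3:142559794-142560093, plus strand.
Cxcl10: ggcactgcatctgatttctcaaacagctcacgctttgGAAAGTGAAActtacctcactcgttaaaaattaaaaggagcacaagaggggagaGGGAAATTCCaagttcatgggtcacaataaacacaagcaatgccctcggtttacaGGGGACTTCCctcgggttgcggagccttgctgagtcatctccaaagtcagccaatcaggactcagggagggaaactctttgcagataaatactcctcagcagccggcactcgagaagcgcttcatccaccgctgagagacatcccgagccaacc
Nfkbia: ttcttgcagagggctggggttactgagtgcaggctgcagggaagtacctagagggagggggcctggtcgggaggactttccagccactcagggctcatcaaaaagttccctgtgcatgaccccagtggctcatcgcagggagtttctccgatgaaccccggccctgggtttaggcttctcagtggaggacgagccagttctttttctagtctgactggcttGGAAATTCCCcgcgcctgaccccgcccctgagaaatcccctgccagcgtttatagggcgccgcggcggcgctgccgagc
Cxcl2: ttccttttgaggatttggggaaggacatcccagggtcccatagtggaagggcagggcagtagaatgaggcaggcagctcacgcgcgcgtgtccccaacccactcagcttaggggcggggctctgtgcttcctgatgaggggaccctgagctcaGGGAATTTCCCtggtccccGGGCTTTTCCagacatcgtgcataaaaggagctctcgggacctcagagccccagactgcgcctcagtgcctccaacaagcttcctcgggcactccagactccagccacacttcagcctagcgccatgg
Ifit1: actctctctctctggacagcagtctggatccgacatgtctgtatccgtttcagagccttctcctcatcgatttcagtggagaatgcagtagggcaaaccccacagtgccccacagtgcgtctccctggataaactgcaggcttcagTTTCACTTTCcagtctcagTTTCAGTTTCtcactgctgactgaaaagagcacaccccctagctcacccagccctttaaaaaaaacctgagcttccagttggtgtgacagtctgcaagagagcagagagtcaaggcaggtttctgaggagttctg
Gbp3: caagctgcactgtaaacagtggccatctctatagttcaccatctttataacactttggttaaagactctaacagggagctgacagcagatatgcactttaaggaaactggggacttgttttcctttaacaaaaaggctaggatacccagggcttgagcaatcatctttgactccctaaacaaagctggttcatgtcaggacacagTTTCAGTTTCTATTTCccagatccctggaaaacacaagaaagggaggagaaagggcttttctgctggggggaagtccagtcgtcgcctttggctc

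In the Cxcl10 window the ISRE core starts 213 bases before the start site, and the kB matches start 159 and 104 bases before it. Nfkbia holds 1 kB match, 29 bases before its start site. Cxcl2 holds 3, at 97, 96 and 78 bases, of which the first pair overlap. The ISRE cores of Ifit1 start 104 and 85 bases before the start site, and those of Gbp3, which overlap, 45 and 39 bases before it. Of the 53 members, 41 had a promoter in the RefSeq table. The ISRE core was in 10 of 15 interferon promoters, in 1 of 14 NF-kB promoters (Cxcl10) and in 0 of 12 immune cell promoters, against 3.99% of 27025 symbols with a promoter. The kB motif was in 8 of 14 NF-kB promoters, 3 of 15 interferon promoters and 1 of 12 immune cell promoters, against 6.31% of all. The gamma-activated motif (TTC, any 3 bases, GAA) was in 2, 2 and 1 promoters of the NF-kB, interferon and immune cell genes, against 9.55% of all. A match describes these letters and is no evidence of binding.

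The values are normalized counts, scaled by the authors, with totals of 5534386 to 7358040 and 10222 to 14632 genes above 0. Read depth is not known, because the values are not whole reads. The commonest low value of a library ran from 0.527 in knockout 3 to 3.55 in knockout 1. Knockout 1 also listed at 0 a total of 41 of the 4048 genes that were at 100 or more in each of the other 9 libraries, against 0 to 7 genes in any other library. A value of 0 is therefore given below as listed at 0, and a mean ± SD (n = 5 in each group) is given for members without one. Runs of 5 values follow replicates 1 to 5. Grk5 was 242 ± 112 in controls against 161 ± 74.9 in knockouts, and the groups overlapped (adjusted p = 0.955 by limma). Esr1, part of which CreER contains, was 1516.7 to 3176.8 in the knockouts and also high in the libraries labelled control 2 (2495.0) and control 5 (773.5), against 10.5 or less in the other controls. Controls 2 and 5 were kept as labelled, and whether their labels are right was not tested. Several estimates below are also given without those libraries.

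**Figure D1:**
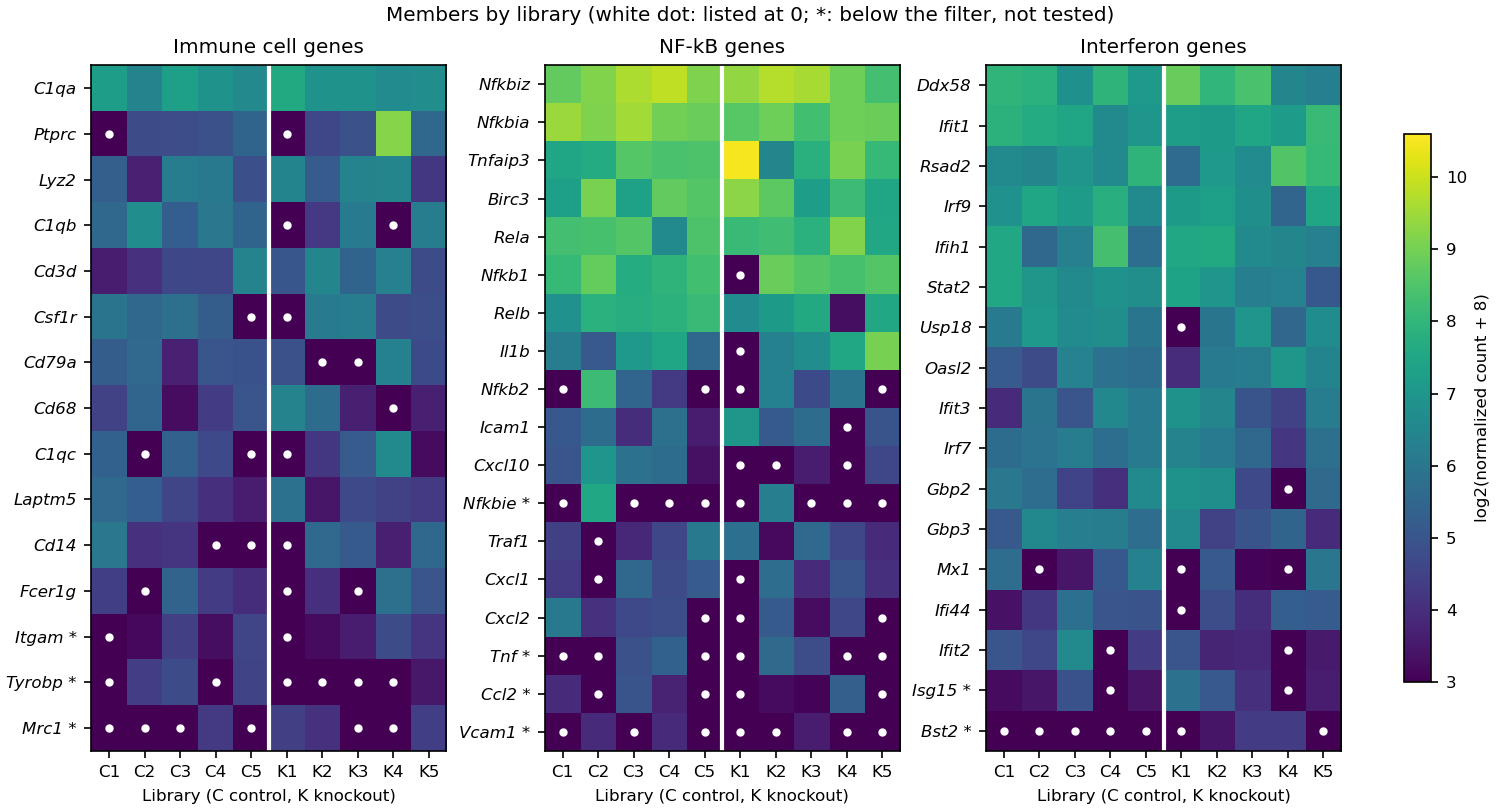
Heat map of log2(normalized count + 8) for the 50 members with a row, in the 5 control (C1 to C5) and 5 knockout (K1 to K5) libraries, with genes ordered by mean within each list. White dots mark values listed at 0 and asterisks the 9 members below the filter; knockout 1 has 15 of the 41 tested members at 0.

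Of the 50 members, 41 reached a normalized count of 10 in 5 or more libraries and were compared between the groups. None passed an adjusted p under 0.05 by limma across 11711 genes (0 of 41, where 0% of all tested genes were called in either direction). At an unadjusted p under 0.05, Cxcl10 was lower in the knockouts and 0 members were higher, where 2.66% of all tested genes were lower and 2.36% higher. An exact permutation test gave an unadjusted p under 0.05 for Cxcl10 and Nfkbia, both lower, 2 of 41 members, against 2.58% of all tested genes that were lower and 2.42% that were higher. The groups overlapped for all 41 members, where 0.427% of all tested genes were lower and 0.435% higher without overlap (0.862% in all). There were 23 members with a lower and 18 with a higher estimate, where 52.4% of all tested genes had a lower one. The median log2 difference, knockout minus control on the log2(normalized count + 8) scale, was -0.06 over the members and -0.03 over all tested genes. These shares are near the background.

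**Figure D2:**
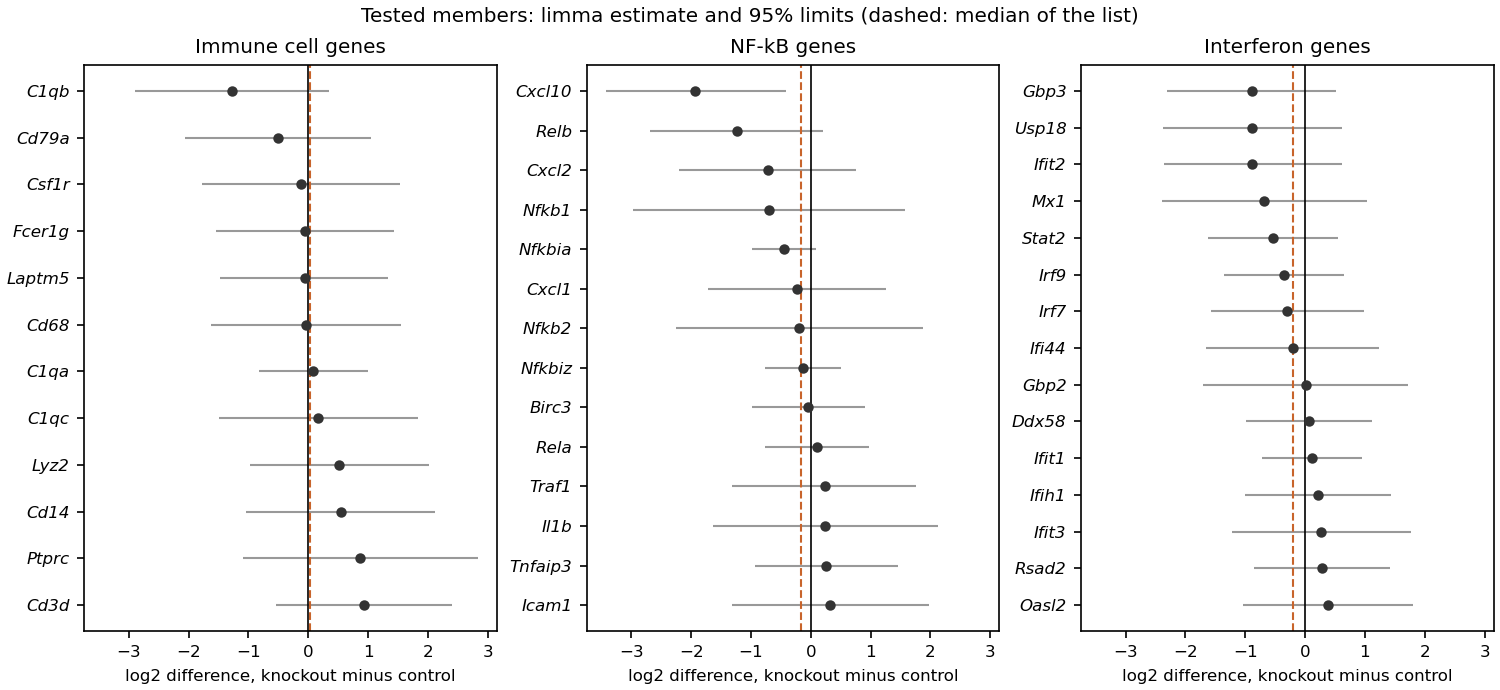
Limma estimates of the log2 difference, knockout minus control, for the 41 tested members, with 95% limits as bars and the median of each list as a dashed line. The limits of 40 members include 0, and those of Cxcl10 run from -3.43 to -0.42.

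Cxcl10 had the largest difference of the 41 members. It was 24.3, 118.1, 49.4, 43.1 and 2.2 in controls 1 to 5. It was listed at 0 in knockouts 1, 2 and 4, and was 4.2 and 16.7 in knockouts 3 and 5. Controls 1 to 4 lay above every knockout, while control 5 lay below knockouts 3 and 5, so the groups overlapped. The log2 difference was -1.93 ± 0.72 (SE), with a limma adjusted p of 0.942 (unadjusted p = 0.0149). The exact permutation p, 2-sided, was 0.0238, and 5 against 5 libraries cannot go below 0.00794. Cxcl10 reached the filter through 4 controls and 1 knockout. The estimate was -2.07 without controls 2 and 5 and lay between -2.43 (control 5 left out) and -1.53 (control 2 left out) with single libraries removed. With the acinar markers as a covariate it was -2.31. Because the values are low, the pseudocount moved it from -0.99 with 32 to -3.57 with 1. In the authors' deposited table the log2 fold change of Cxcl10 is -3.37, with an adjusted p of 0.499.

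Cxcl9 and Cxcl11, whose products bind the same receptor as Cxcl10, lie beside it on chromosome 5, were below the filter and were singled out after their values were seen. The Cxcl11 values were 42.7, 4.7, 14.4, 21.8 and 0.0 in controls 1 to 5. In the knockouts Cxcl11 was listed at 0 except for 3.8 in knockout 5. Cxcl9 was at 9.4 or less in every library. The antigen presentation genes Psmb9 and Psmb10, also below the filter and singled out afterwards, went the other way. Psmb9 was 0.0, 2.2, 5.8, 4.9 and 0.0 in the controls, against 227.3, 1.6, 9.8, 6.8 and 8.5 in the knockouts. Psmb10 was listed at 0 in all 5 controls and was 28.4, 5.6, 0.0, 2.4 and 0.0 in the knockouts. The groups overlapped for both. Cxcl2 was 58.9, 8.9, 17.6, 20.2 and 0.0 in the controls, against 0.0, 27.9, 1.6, 16.5 and 0.0 in the knockouts. Its highest value was in control 1, and the groups overlapped over most of their range. The log2 difference of Cxcl2 was -0.72 ± 0.71 (SE), -0.34 without control 1 and -1.10 without control 5, and -1.38 without controls 2 and 5. That of Cxcl1, another neutrophil chemokine, was -0.23 ± 0.71 (SE). Ccl2, a monocyte chemokine, was below the filter at 0.0 to 31.7.

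The NF-kB subunit genes overlapped between the groups. Rela, the main activating subunit, was 292 ± 114 in controls against 307 ± 149 in knockouts, a log2 difference of 0.11 with 95% limits of -0.76 to 0.97. Relb, a subunit of the non-canonical route, was 108.0, 223.7, 205.7, 227.7 and 274.8 in the controls, against 93.6, 134.2, 189.9, 1.7 and 178.6 in the knockouts. Control 1 lay among the knockouts and knockout 4 lay far below the other 9 libraries. Its log2 difference was -1.24 ± 0.68 (SE, unadjusted p = 0.0870 by limma), and -0.45 without knockout 4. Nfkb1, which encodes the p50 subunit, was 264.4, 437.9, 202.0, 236.7 and 310.2 in controls 1 to 5. It was 458.8, 372.2, 324.5 and 367.4 in knockouts 2 to 5 and listed at 0 in knockout 1. Its log2 difference was -0.70 ± 1.02 (SE) over all libraries and 0.42 without knockout 1, so its direction rests on that value. Nfkb2, which encodes the p52 subunit, was 287.9 in control 2 and at most 73.7 in the other 9 libraries, with 4 listed at 0.

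The IκB genes and Tnfaip3, which NF-kB induces, differed widely in level. Per kilobase of exon, the mean normalized count of Nfkbia was 314 and that of Nfkbiz, a nuclear IκB protein, was 126, above the 112 of C1qa, the highest immune cell gene. Nfkbia was 694.4, 553.8, 732.2, 499.1 and 454.3 in the controls, against 390.5, 480.6, 309.0, 475.2 and 471.7 in the knockouts. Controls 1 to 4 lay above every knockout, and control 5 lay below knockouts 2, 4 and 5. The means were 587 ± 121 against 425 ± 74.9, a log2 difference of -0.45 ± 0.26 (SE, unadjusted p = 0.0971 and adjusted p = 0.942 by limma). The exact permutation test gave p = 0.0397 for Nfkbia. The estimate was -0.58 without controls 2 and 5, and ran from -0.54 to -0.34 when single libraries were left out. Nfkbiz was 655 ± 206 against 611 ± 216, a log2 difference of -0.13 with limits of -0.76 to 0.51. Tnfaip3, which encodes the ubiquitin-editing enzyme A20, was 286 ± 93.8 against 504 ± 538. It was 1421.7 in knockout 1 and 82.0 in knockout 2, with the other 8 libraries between them. The log2 difference of Tnfaip3 was 0.26 over all libraries and -0.26 without knockout 1. Nfkbie, a further IκB gene, was below the filter, at 179.0 in control 2, 68.5 in knockout 2 and listed at 0 in the other 8.

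**Figure D3:**
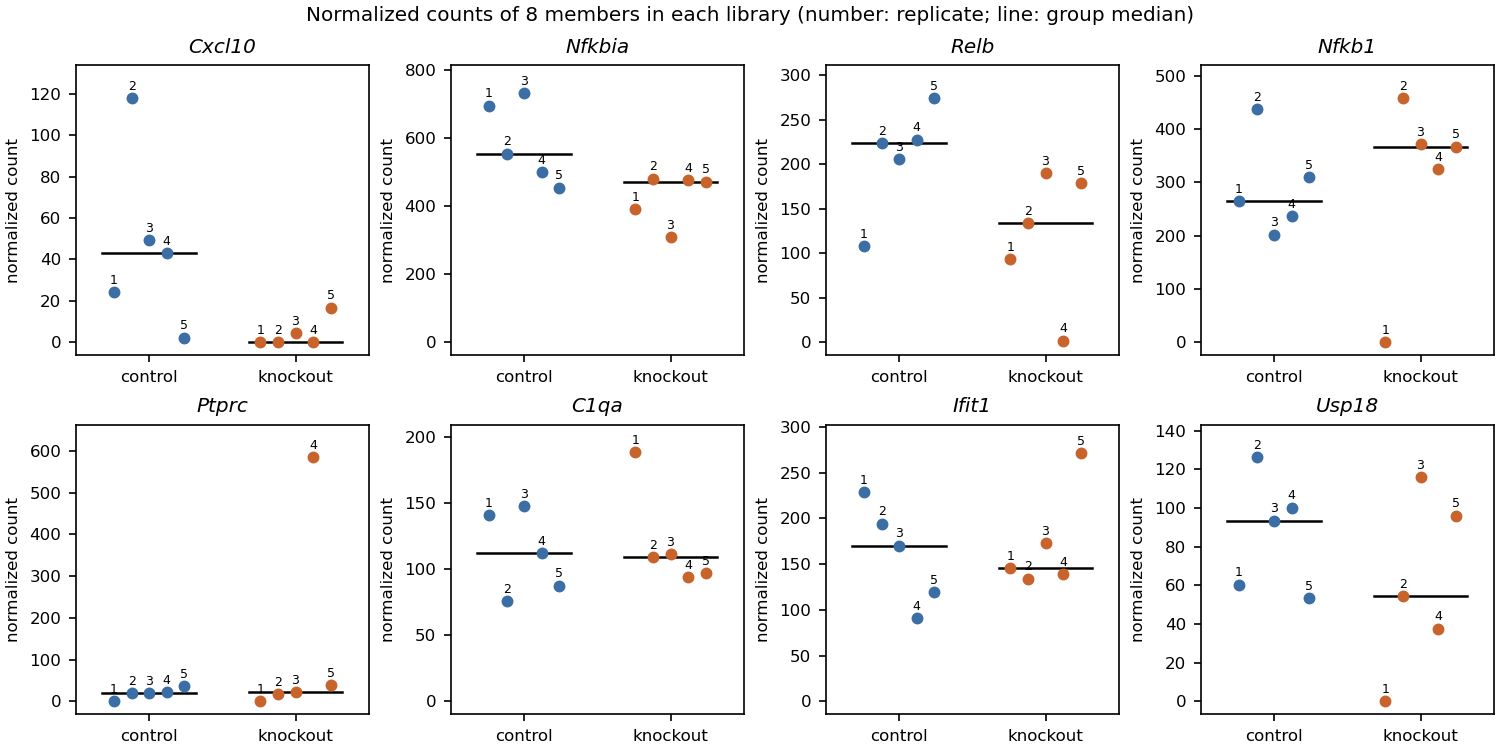
Normalized counts of 8 members in each control (blue) and knockout (orange) library, numbered by replicate, with a line at the group median; axes differ between panels. Controls 1 to 4 lie above every knockout for Cxcl10 and for Nfkbia, the 585.0 of Ptprc is in knockout 4, and Nfkb1 is listed at 0 in knockout 1.

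Among the other NF-kB genes, Birc3, an inhibitor of apoptosis, was 327 ± 170 in controls against 322 ± 191 in knockouts, a log2 difference of -0.04 with limits of -0.98 to 0.90. Il1b, the cytokine interleukin-1β, was 26.6 to 173.9 in controls and 0.0 to 517.6 in knockouts, with a median of 65.5 against 97.8. Icam1, an adhesion molecule for leukocytes, was 3.9 to 47.8 in controls and 0.0 to 120.7 in knockouts. Traf1, an adaptor of TNF receptors, was 0.0 to 59.1 and 1.2 to 46.3. Vcam1 and Tnf were below the filter, at no more than 7.4 and 41.7. In all, 14 of the 18 NF-kB genes with a row were tested, and 9 had a lower and 5 a higher estimate, with a median log2 difference of -0.16.

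The immune cell genes were low in every library. The 12 tested had a median of their mean normalized counts of 28.5, against 137 over all tested genes. Of these, 6 had a lower and 6 a higher estimate, and the median log2 difference was 0.02. C1qa, C1qb and C1qc, neighbours on chromosome 4, encode the 3 chains of the complement protein C1q, which macrophages make. C1qa was the highest, at 113 ± 31.7 in controls against 120 ± 38.8 in knockouts, a log2 difference of 0.08 ± 0.44 (SE). C1qb was 38.8, 97.4, 30.9, 57.0 and 35.3 in controls 1 to 5. It was 11.2, 61.7 and 66.5 in knockouts 2, 3 and 5, and listed at 0 in knockouts 1 and 4, an estimate of -1.28 ± 0.77 (SE). The listed values of the chains did not follow each other in knockouts 1 and 4. Knockout 1 had the highest C1qa of the 10 libraries (188.1) with C1qb and C1qc listed at 0, and knockout 4 had the highest C1qc (89.6) with C1qb listed at 0. C1qb and C1qc had means of 39.9 and 21.3, and 82.8% of tested genes with means of 10 to 50 had a library at 0. Whether these values at 0 reflect the chains or their low level was not tested.

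Ptprc, which encodes the pan-leukocyte protein CD45, stood apart in a single library. It was listed at 0 in control 1 and was 19.1 to 35.9 in controls 2 to 5. In knockouts 1 to 5 it was 0.0, 16.6, 21.6, 585.0 and 38.6. The log2 difference was 0.87 ± 0.94 (SE) over all libraries and -0.07 without knockout 4. The authors' deposited table gives 2.70 for Ptprc with an adjusted p of 0.634. In knockout 4 the immune cell genes summed to 1097.0, of which 512.0 came from the genes other than Ptprc. Without Ptprc the sum was 309.8 to 456.7 in controls and 337.7 to 512.0 in knockouts. Knockout 4 had the highest value of the 10 libraries for 5 of the 12 tested immune cell genes (Ptprc, Lyz2, C1qc, Fcer1g and Cd79a). It listed Cd68, a macrophage lysosomal protein, at 0. The T cell markers Cd3e, Cd3g and Cd2, given below, were also highest in knockout 4. How often knockout 4 was the highest over all tested genes was not measured.

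Lyz2, the lysozyme of myeloid cells, was 36.4 ± 25.5 in controls against 54.9 ± 32.6 in knockouts, a log2 difference of 0.52 ± 0.72 (SE), which was -0.11 without controls 2 and 5. Csf1r, the receptor that maintains macrophages, was 0.0 to 52.4 in controls and 0.0 to 64.9 in knockouts. Cd68 was 1.6 to 37.0 and 0.0 to 76.7. Cd14, a co-receptor for bacterial lipopolysaccharide, was 57.5 in control 1 and at most 10.1 in the other controls, against 0.0 to 40.5 in knockouts. Its log2 difference was 0.54 ± 0.75 (SE), 1.03 without control 1 and 0.20 without controls 2 and 5. Laptm5, a lysosomal protein of blood cells, was 4.0 to 40.6 and 2.9 to 48.9. Fcer1g, an Fc receptor signalling chain, was 0.0 to 34.7 and 0.0 to 48.0. The integrin gene Itgam, the adaptor gene Tyrobp and Mrc1, a mannose receptor of tissue macrophages, were below the filter and reached 18.8, 19.4 and 13.8.

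Lymphocyte genes were scarce. Cd3d, a chain of the T cell receptor complex, was 4.3, 8.9, 16.9, 16.5 and 75.7 in the controls, against 24.8, 81.0, 35.9, 70.6 and 19.0 in the knockouts. All knockouts lay above controls 1 to 4, while control 5 lay above knockouts 1, 3, 4 and 5. The log2 difference was 0.93 ± 0.70 (SE, unadjusted p = 0.199 by limma), and 1.31 without controls 2 and 5. Of the other T cell markers, Cd3e, Cd3g and Cd2 were above 0 in 2, 4 and 3 libraries. Each was highest in knockout 4, at 14.1, 25.9 and 21.2. Cd79a, a chain of the B cell receptor, was 5.0 to 40.8 in controls and 0.0 to 72.9 in knockouts, and the B cell markers Cd79b and Ms4a1 were above 0 in 1 and 2 libraries. The 72.9 of Cd79a was in knockout 4, where Cd79b and Ms4a1 were listed at 0. Of the dendritic cell markers with a row, Zbtb46 was tested, with a log2 difference of -0.32. The neutrophil marker Csf3r was at 4.0 in control 3 and listed at 0 elsewhere.

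The interferon genes were represented at low to moderate levels, with a median of their mean normalized counts of 55.3 over the 15 tested. There were 8 with a lower and 7 with a higher estimate, and the median log2 difference was -0.21. The signalling genes overlapped between the groups. Stat2 was 120 ± 33.2 against 90.5 ± 52.2, Irf9, its DNA-binding partner, 144 ± 48.9 against 118 ± 51.7, and Irf7, which amplifies interferon production, 53.3 ± 9.52 against 47.6 ± 25.3. Their log2 differences were -0.53, -0.35 and -0.30, with limits that include 0.

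Ddx58, Ifit1 and Rsad2 had the highest mean normalized counts of the list. Ddx58, which encodes RIG-I, a sensor of viral RNA, was 188 ± 65.6 in controls and 236 ± 162 in knockouts, with a log2 difference of 0.06 that was -0.24 without knockout 1. Ifih1, which encodes MDA5, another such sensor, was 131 ± 121 against 123 ± 57.7. Ifit1 was 228.6, 194.4, 170.3, 91.0 and 119.5 in the controls, against 145.5, 134.1, 173.0, 138.8 and 271.2 in the knockouts. Controls 4 and 5 lay below every knockout and knockout 5 lay above every control, and the log2 difference was 0.12 with limits of -0.72 to 0.95. Its neighbours on chromosome 19 were lower per kilobase of exon, at a mean of 30.1 for Ifit3 and 4.66 for Ifit2, against 62.7 for Ifit1. Ifit2 was 0.0 to 89.3 in controls and 0.0 to 24.1 in knockouts, an estimate of -0.88 ± 0.71 (SE) that was -0.40 without control 3.

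Among antiviral effectors, Rsad2, the radical enzyme viperin, was 124 ± 65.4 against 179 ± 133, a log2 difference of 0.28 that was -0.05 without knockout 4. Oasl2, a relative of the oligoadenylate synthetases, was 43.4 ± 21.6 against 67.3 ± 41.1, and Ifit3 was 46.7 ± 31.3 against 58.3 ± 39.9. Gbp3 was 27.1, 85.9, 67.9, 67.0 and 44.9 in the controls, against 92.3, 14.1, 23.4, 35.5 and 7.1 in the knockouts. Knockout 1 was the highest of the 10 libraries, and the other 4 knockouts lay below controls 2 to 5. The means were 58.5 ± 22.8 against 34.5 ± 34.0, with the smallest unadjusted p of the list (0.202 by limma) and a log2 difference of -0.89. Its relative Gbp2 was 8.2 to 91.7 in controls and 0.0 to 112.2 in knockouts, with an estimate of 0.01. Usp18, which removes ISG15 from proteins and dampens the receptor, was 53.5 to 126.3 in controls and 37.6 to 116.0 in knockouts 2 to 5, and was listed at 0 in knockout 1. Its log2 difference was -0.88 over all libraries and -0.22 without knockout 1. Mx1, an antiviral GTPase, was 0.0 to 73.4 and 0.0 to 55.0, with an estimate of -0.69 that was -0.28 without control 5. Ifi44 was 2.4 to 47.0 and 0.0 to 31.0. The ubiquitin-like modifier gene Isg15 and the membrane tether gene Bst2 were below the filter. Isg15 was 0.0 to 22.3 in controls and 0.0 to 49.7 in knockouts, and Bst2 was listed at 0 in all 5 controls and in knockouts 1 and 5, with at most 12.1 in the others. Gbp, Ifit, Lyz and Cxcl genes have close relatives, and the sources used here do not say how the authors treated reads shared between them.

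Grouped by promoter motif, members were described with no test. Of 9 tested members with the ISRE core, 3 had a lower and 6 a higher estimate, with a median of 0.06. Of 9 with the kB motif, 7 had a lower and 2 a higher estimate, with a median of -0.45, beside 52.4% of all tested genes with a lower one. Of 15 with none of the 3 motifs, 8 were lower and 7 higher. Cxcl10 is in both the ISRE and the kB group, as is Gbp2.

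The receptors and kinases that lead to NF-kB were tested for 28 of 30 genes, and 15 had a lower and 13 a higher estimate, with a median of -0.07. Ripk1, a kinase below the TNF receptor, was 370.1, 708.8, 677.3, 635.2 and 471.3 in the controls, against 360.9, 404.5, 402.4, 254.7 and 282.7 in the knockouts. Controls 2 to 5 lay above every knockout and control 1 lay among them, with a log2 difference of -0.72 ± 0.28 (SE, unadjusted p = 0.0201 and adjusted p = 0.942 by limma). Nfkbib, which encodes IκBβ, had a log2 difference of -1.05 ± 0.51 (SE, unadjusted p = 0.0532). Il1r1, the interleukin-1 receptor, was singled out after its values were seen, at 4047 ± 839 in controls and 3308 ± 601 in knockouts. Its mean per kilobase of exon was 578, against 68.1 for its ligand Il1b.

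Of 22 genes of the interferon route, 19 were tested, with 8 lower and 11 higher estimates and a median of 0.01. Ifnar2, a chain of the type I interferon receptor, was 41.7, 79.6, 135.1, 89.1 and 12.6 in the controls, against 411.6, 143.7, 136.9, 173.1 and 115.3 in the knockouts, a log2 difference of 1.47 ± 0.57 (SE, unadjusted p = 0.0182 by limma). Control 3 lay above knockout 5, so the groups overlapped. Socs3, a feedback inhibitor of JAK kinases, was 1510.5 in control 3 and 412.3 to 672.2 in the other controls, against 266.1 to 510.0 in knockouts (log2 difference -0.75 ± 0.35 SE, unadjusted p = 0.0457). Of 15 antigen presentation genes 11 were tested, with 8 lower and 3 higher and a median of -0.27. H2-K1, a class I heavy chain, was 1049.8, 1427.9, 1196.2, 1628.8 and 949.3 in the controls, against 825.2, 1152.7, 665.0, 222.8 and 602.2 in the knockouts. Knockout 2 lay above controls 1 and 5, and the log2 difference was -0.99 ± 0.34 (SE, unadjusted p = 0.00905 by limma). Nlrc5, an activator of class I genes, was 7.7 to 35.6 in controls and 32.1 to 103.9 in knockouts, with a log2 difference of 1.38 ± 0.65 (SE, unadjusted p = 0.0465). None of these genes passed the adjusted threshold by limma. Of 8 other chemokine genes 4 were tested, and Ccl5 and Cxcl12 had log2 differences of -0.84 and 1.02. At an unadjusted p under 0.05 by limma, 1 of 28 NF-kB route genes was lower. Of 19 interferon route genes 1 was lower and 1 higher, and of 11 antigen presentation genes 1 was lower and 1 higher. Of the 4 chemokine genes 0 passed, and over all tested genes 5.01% did. The genes named by rule have the smallest p of their lists, and their estimates with libraries left out are not given.

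**Figure D4:**
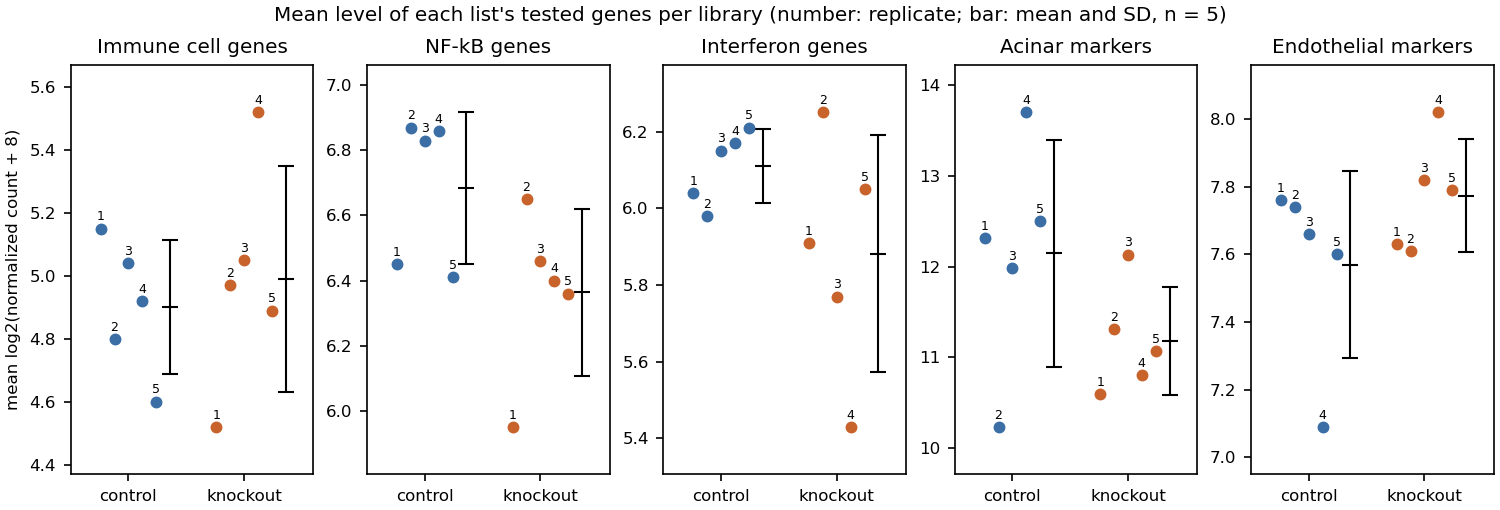
Mean log2(normalized count + 8) of the tested genes of the 3 lists and of the acinar and endothelial markers in each library, control in blue and knockout in orange, numbered by replicate, with the mean and SD (n = 5) beside the points; axes differ between panels. Control 2 has the lowest and control 4 the highest acinar level, and the groups overlap for all 5 lists.

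By library, the mean log2 level of the immune cell list was 4.90 ± 0.21 in controls and 4.99 ± 0.36 in knockouts. That of the NF-kB list was 6.68 ± 0.23 against 6.36 ± 0.26, with knockout 1 the lowest at 5.95 and controls 2, 3 and 4 the highest at 6.83 to 6.87. That of the interferon list was 6.11 ± 0.10 against 5.88 ± 0.31, with knockout 4 the lowest at 5.43. Knockout 1 held the highest of the 10 values for 11 of the 41 tested members and a value listed at 0 for 15 of them. It also had the fewest genes above 0 of the 10 libraries, at 10222. The same counts over all tested genes were not made, so these are not a trait of the members. Markers of acinar cells, the enzyme-secreting cells around islets, were lower in the knockouts for 13 of 13 tested genes, with summed levels of 18875.8 to 205124.4 in controls and 25968.8 to 71073.0 in knockouts and none of the 13 at 0. Markers of endothelial cells were higher for 6 of 7, with sums of 1658.4 to 2001.5 in controls and 1999.4 to 2808.1 in knockouts. Their mean log2 levels were 7.09 to 7.76 in controls and 7.61 to 8.02 in knockouts. Markers of beta cells were lower for 8 of 8, with a median log2 difference of -0.22. Their mean log2 levels were 12.86 ± 0.15 against 12.65 ± 0.08. Their sums were 859619.2 to 1075731.2 in controls and 870040.5 to 1158847.7 in knockouts. Of all tested genes, 52.4% had a lower and 47.6% a higher estimate. With the mean acinar level as a covariate, the median log2 difference was 0.11 for the immune cell genes, -0.30 for the NF-kB genes and -0.09 for the interferon genes, and 0 members were called. The part of the endothelial and beta cell markers in the member values was not tested. Within groups, the median pairwise Pearson r of the log2 values over the 10 libraries was -0.04 for the immune cell genes, -0.03 for the NF-kB genes and 0.05 for the interferon genes, against 0.95 for the acinar, 0.28 for the beta cell and -0.13 for the endothelial markers. A library was listed at 0 for 8 of 12 immune cell, 8 of 14 NF-kB and 5 of 15 interferon genes. The same held for 0 of 13 acinar, 0 of 8 beta cell and 1 of 7 endothelial markers. The part of low values and values at 0 in these r was not tested.

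The precision of these values sets what could be seen. The 95% limits of 35 of the 41 tested members reached a log2 difference of 1 in size, and those of the other 6 (C1qa, Nfkbia, Rela, Birc3, Nfkbiz and Ifit1) lay within it. The median within-group SD was 1.16 for the immune cell genes, 1.09 for the NF-kB genes and 0.93 for the interferon genes, against 0.84 over all tested genes. Their median log2 levels were 4.83, 6.74 and 5.78, against 6.91 over all tested genes. The SDs were not compared with genes of similar level. A library listed at 0 was present for 17 of the 21 members with a mean of 10 to 50, where 82.8% of genes at that level had one. For means of 50 to 200 it was 3 of 13 members against 26.8% of genes, and for means of 200 to 1000 it was 1 of 7 members (Nfkb1) against 3.09% of genes.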

How the data were processed

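RNA of pancreatic islets was sequenced in 10 libraries, 5 per group, from rRNA-depleted RNA with a stranded kit, per the labels' protocols. Tools listed in the submitters' processing notes are DESeq2, HTSeq and STAR 2.4.0.1, with no role given. The authors deposited normalized counts, a signal unit that is not whole reads. Their scaling, build and annotation are not given in the sources used here. That table also holds the authors' own log2 fold changes with standard errors, test scores and p-values, quoted only where named. Of 17946 rows, 1 without a name (0.00774% to 0.0251% of a library) was left out.

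Values were taken as log2(normalized count + 8) for 11711 genes with at least 10 in at least 5 libraries, which understates differences of low genes. Groups were compared with limma 3.58.1 (R 4.3.3; trend, robust, Benjamini-Hochberg at 0.05), and single genes with exact 2-sided permutation tests. The labels do not say whether libraries are separate animals, so the spread behind each p may be technical. Members, lists, tests and the libraries left out were chosen with earlier results of these data known. The named genes were, by rule, Cxcl10, the 5 members with the smallest p and the 3 with the highest mean in each list, and the 2 genes with the smallest p in each further list. They are given by library, or by mean or range. Other members are given by range or mean, and genes outside the rule are named as singled out afterwards. Data were simulated from these libraries (11711 genes), with noise independent between genes and changes set as folds of the normalized count + 8. Of these, 6 of 100 genes changed 2-fold and 28 of 100 changed 4-fold were recovered, with 1 unchanged gene called. For low genes such folds are larger in the normalized count itself, so recovery of 2-fold and 4-fold changes in that count was not measured. Alternatives were other scalings, filters, pseudocounts, variance estimates, library weights, an acinar covariate and left-out libraries. Gene positions and exon lengths are from GENCODE M21 (GRCm38), promoters from RefSeq (GRCm38.p6). Figures used Python 3.11.15 and matplotlib 3.10.9.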

Additional observations from a re-analysis of the deposited data

Results flagged for a closer look

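The normalized counts of the tested members were searched for a library far from the other 4 of its group, in 82 groups of 5. Among normally distributed values, chance alone flags about 1 group in 20, and 12 were found. The search used the normalized counts and not their log2 values, and such counts can be skewed toward high values. The 12 groups therefore cannot be set against that rate, and whether they exceed chance was not tested. In 11 of the 12 groups a single library was the highest and far above the next: Ptprc in knockout 4 was 585.0, with 38.6 next. C1qa in knockout 1 was 188.1, with 111.3 next, and Ifit2 in knockout 1 was 24.1, with 6.7 next. Cxcl10 in knockout 5 was 16.7, with 4.2 next, and Ifit1 in knockout 5 was 271.2, with 173.0 next. Cd14 in control 1 was 57.5, with 10.1 next. Nfkb2 in control 2 was 287.9, with 36.3 next, and Ifit2 in control 3 was 89.3, with 24.4 next. Control 5 stood apart for Cd3d at 75.7 (16.9 next), for Traf1 at 59.1 (16.4 next) and for Rsad2 at 238.0 (117.7 next). Rela in control 4 was the lowest of its group at 91.9, with 316.3 next.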

How the results depend on the processing

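No member passed the adjusted threshold by limma under any of the 21 alternatives, and Cxcl10 had an unadjusted p under 0.05 in the 20 that tested it. The other, a minimum of 50, left it out. Its adjusted p ran from 0.730 to 0.999. Nfkbia and Gbp3 also had an unadjusted p under 0.05 with library weights, Relb without knockout 3 and C1qb without knockout 5. Over all genes 0 were called, against 1 with plain variance estimates, 1 without controls 2 and 5 and 4 without controls 2, 3 and 5, and from 0 to 1 with single libraries left out (1 without control 1). The list medians of the immune cell, NF-kB and interferon genes ran from -0.19 to 0.30, from -0.38 to -0.04 and from -0.40 to 0.09, the last value with a minimum of 50, which left 10 interferon genes. Without controls 2 and 5 the list medians were -0.19, -0.32 and -0.27. Of 21 named members, 12 kept their direction throughout and 9 did not, in 24 of 432 values, and the cause was not tested. With single libraries left out, the values ran from -0.08 to 0.18 for C1qa, -0.24 to 0.40 for Ddx58, -0.06 to 0.26 for Ifit1, -1.05 to 0.42 for Nfkb1, -0.26 to 0.09 for Nfkbiz, -0.07 to 1.48 for Ptprc, -0.05 to 0.67 for Rsad2 and -0.26 to 0.74 for Tnfaip3. C1qa was -0.04 with weights and without control 2, -0.08 without knockout 1, -0.18 without controls 2 and 5 and -0.11 without controls 2, 3 and 5. Ddx58 was -0.35 without controls 2, 3 and 5 and below 0 without control 3, control 5 or knockouts 1, 2 or 3 (-0.11, -0.05, -0.24, -0.04 and -0.14). Ifit1 was -0.09 with the acinar covariate, -0.06 without control 4 and -0.05 without knockout 5, where Nfkbiz was 0.07, 0.01 and 0.09. Without knockout 1, Nfkb1 was 0.42 and Tnfaip3 -0.26, and with weights 0.11 and -0.29. Without knockout 4, Ptprc was -0.07 and Rsad2 -0.05, and Lyz2 was -0.11 without controls 2 and 5. No paired analysis was possible because the labels give no replicate numbers shared by the groups. In controls 2, 3 and 5, 10.1% to 11.5% of values lay midway between multiples of the commonest low value, within 0.01, against 1.22% to 1.42% elsewhere. These are all controls, so the groups could not be compared within the libraries that show this. Leaving controls 2, 3 and 5 out is among the alternatives above.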
